A study of Mus musculus with 24 samples.

Results

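The 7 genes described here, Nudt7, Ehhadh, Acaa1b, Cpt1a, Pex11a, Vnn1 and Fgf21, are targets of PPARA in fatty acid oxidation, chosen by name from 22350 protein-coding genes. Their H3K27ac peaks were all peaks of the merged lists that overlapped the gene body plus 10 kb on each side in mm9, by at least 1 base. Peaks of different lists that overlapped were joined into regions, which gave 56 regions in the 7 windows of 119348 regions in the genome. H3K27ac was profiled by ChIP-seq in liver of male and female mice labelled as 8 weeks old, of 2 inbred strains: B6 (C57BL/6J) and the wild-derived CAST (CAST/EiJ). There were 5 livers in each of the 4 groups and 1 input sample per group, and the labels name no treatment or engineered allele. The reads of the livers of a group were pooled before peaks were called, so each group gave 1 list and no spread between animals could be measured. The differences below are therefore descriptions of 4 pooled lists without a test, and their intervals cover counting error only. For the B6 females and the CAST males the strain field of the labels goes against the sample titles, and the titles were followed.

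PPARA is a nuclear receptor that binds fatty acids and, paired with RXRA, turns on genes for fatty acid breakdown in liver, above all in fasting. Ehhadh and Acaa1b encode enzymes of peroxisomal β-oxidation, Pex11a a membrane protein for peroxisome division, and Nudt7 a peroxisomal enzyme that cleaves coenzyme A. Cpt1a encodes the carnitine palmitoyltransferase that admits long-chain fatty acids to mitochondria, Vnn1 a pantetheinase that recycles a building block of coenzyme A, and Fgf21 a hormone secreted by the fasted liver. H3K27ac, acetylation of lysine 27 of histone H3, marks active promoters and enhancers. In whole liver, a larger share of cells with the mark cannot be told apart from more of the mark per cell.

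The lists held 79818 to 90228 peaks on the autosomes and the X chromosome. The own promoter held a peak in all 4 lists for 5 of 5 hepatocyte markers and 3 of 3 endothelial markers. It did so for 0 of 4 leukocyte and Kupffer cell markers, 0 of 3 stellate cell markers, 2 of 3 cholangiocyte markers and, among 4 markers of other tissues, for Gfap alone. Cd5l, Des, Pdgfrb, Krt19, Neurod1, Myod1 and Nkx2-1 had no promoter peak in any list. Lrat, a stellate cell marker, had one in CAST females alone (fold enrichment 2.24). Of the leukocyte and Kupffer cell markers, the 3 with a peak were on the female side in B6 and mixed in CAST. Cd68, a macrophage marker, had a promoter peak in both female lists alone (fold enrichment 5.39 in B6 and 5.40 in CAST), and Clec4f, a Kupffer cell marker, in B6 females alone (2.13). Ptprc, a marker of leukocytes, had one of 2.58 in B6 males, 2.97 in B6 females and 2.45 in CAST males, and none in CAST females. The part of these cells in the sex differences below was not tested.

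PPARA with RXRA binds a direct repeat of AGGTCA with 1 base between, written AGGTCANAGGTCA. Matches on either strand with at most 2 mismatches in the 12 fixed bases lay in 15 of the 56 regions (26.8%). Among all regions of like length, within 20% of each region's width, a match lay in 16.6% on average. Among them were 5 of the 9 regions at Acaa1b, 4 of 8 at Nudt7, 2 of 19 at Cpt1a, 1 of 4 at Vnn1 and 1 of 5 at Fgf21, while 0 of 7 at Ehhadh held a match. A match describes letters of the reference and not a bound site. The 3 matches below, each with at most 1 mismatch, are shown because they lie in regions whose signal is given below. They are read 5′ to 3′ on the strand of the match, from the NCBIM37 (mm9) reference, which is the B6 sequence, and capitals mark the match.
Acaa1b, 11.8 kb past the start: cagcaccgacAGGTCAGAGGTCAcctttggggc
Acaa1b, upstream promoter: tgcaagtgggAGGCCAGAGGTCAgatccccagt
Fgf21, 4.71 kb past the start: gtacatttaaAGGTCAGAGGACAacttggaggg
The first, at chr9:119054401-119054433 on the minus strand, lies past the 3′ end of Acaa1b and had no mismatch. The second, at chr9:119067144-119067176 on the plus strand, lies 0.949 kb upstream of the Acaa1b start. The third, at chr7:52866131-52866163 on the minus strand, lies past the 3′ end of Fgf21. Of regions of like length, 4.65%, 2.43% and 5.41% held a match with at most 1 mismatch, in the same order.

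Peaks were split into own promoter (within 2.5 kb of an annotated start of the gene), other promoter (within 2.5 kb of another gene's start) and distal (the rest). Of the 56 regions, 12 were own promoters, 6 other promoters and 38 distal. Own promoters were called in all 4 lists in 8 of 12 regions and other promoters in 4 of 6. Distal regions were called in all 4 lists in 12 of 38, and 16 of the 38 appeared in 1 list alone. With all classes together, 24 of the 56 regions (42.9%) were called in all 4 lists and 18 (32.1%) in 1 list. In the windows of all protein-coding genes these shares were close, at 42.1% and 31.7%. Shares by class over all windows were not computed. A region missing from a list stayed under the caller's threshold there, and its signal in that list is not known.

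**Figure D1:**
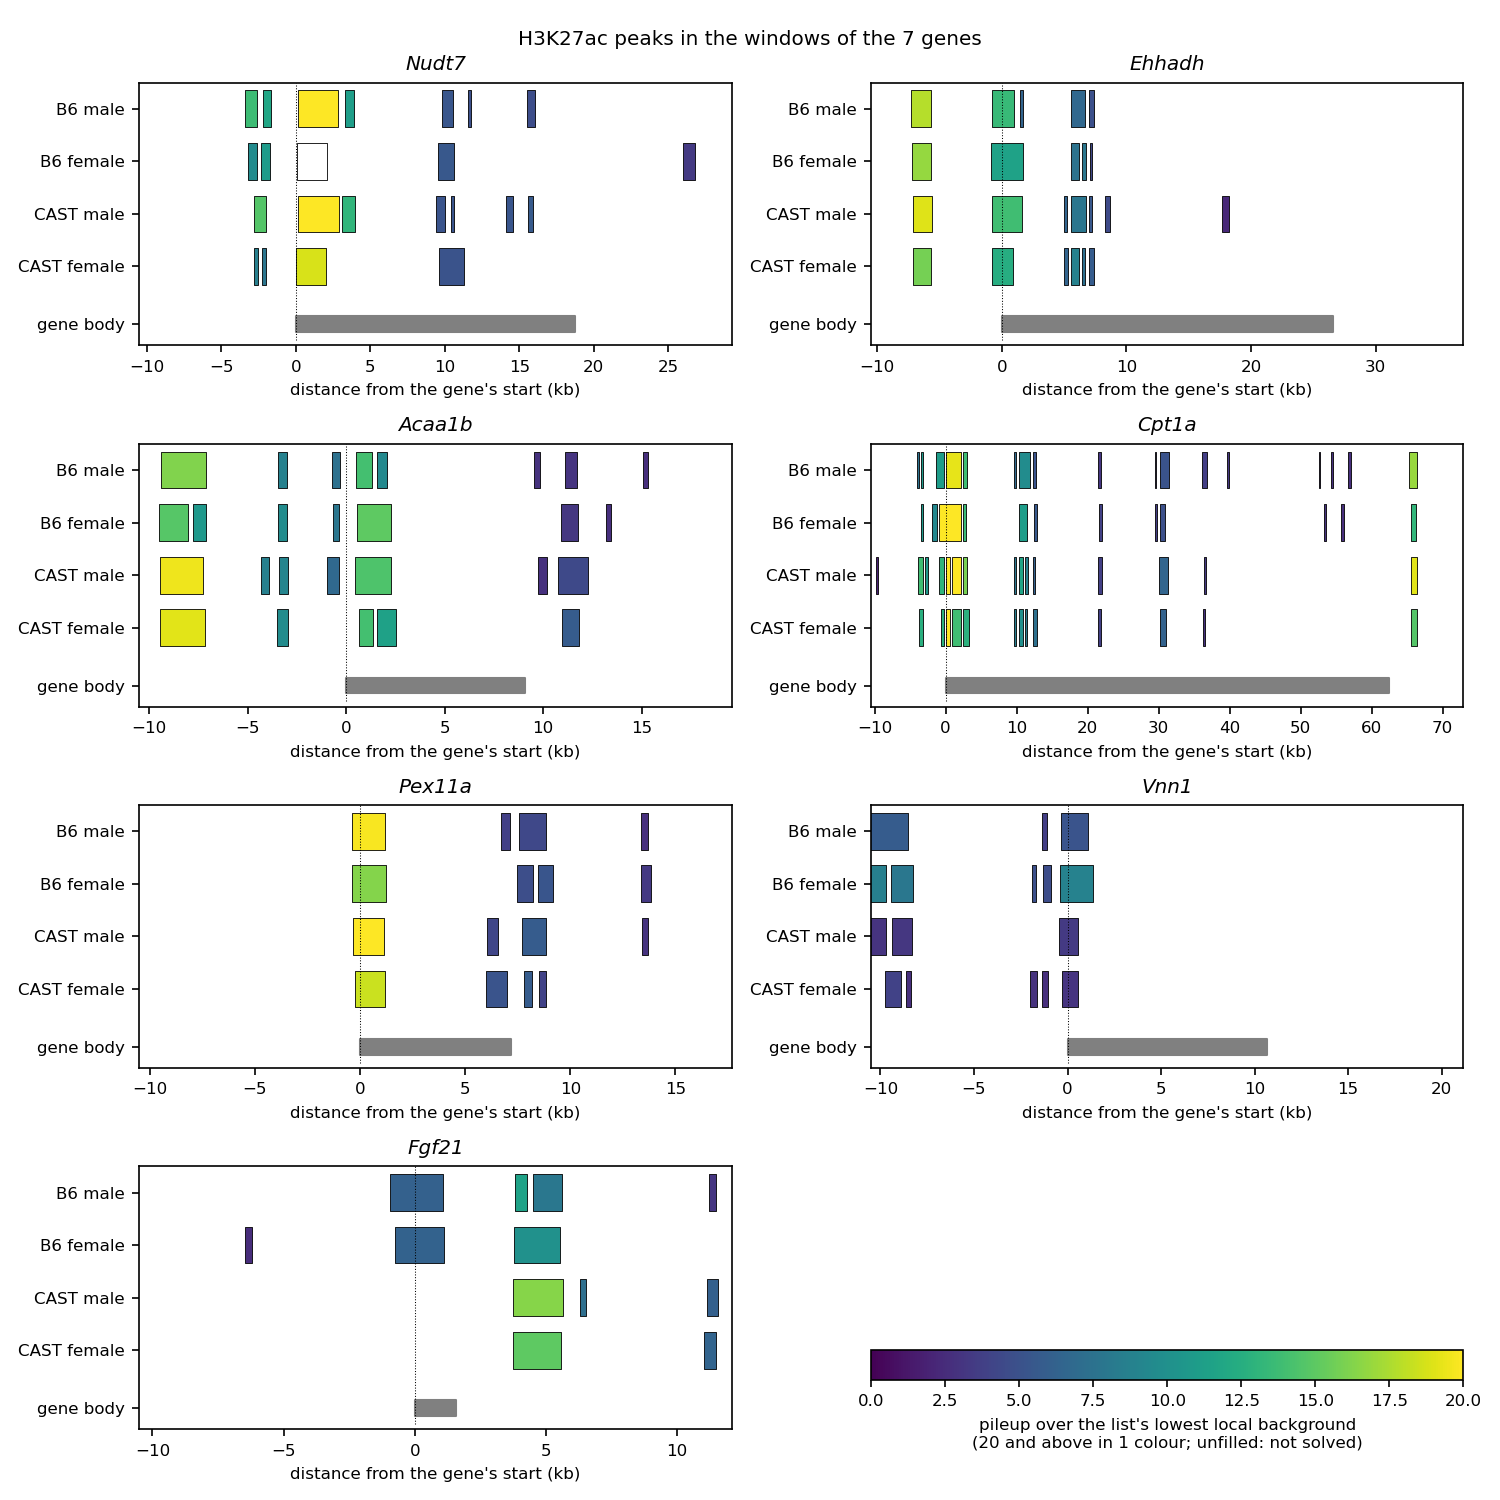
Peaks of each list (rows) in the windows of the 7 genes, by distance from the gene's start in kb along its direction of transcription; the colour of a box gives the pileup over the list's lowest local background, and the grey bar the gene body. The boxes at the gene starts line up across the lists, except at Fgf21 where both CAST rows are empty. Of the 18 regions of 1 list, 8 lie at Cpt1a, which holds 19 of the 56 regions.

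Signal was read in 2 ways. The fold enrichment is the caller's ratio of the pileup, the number of extended reads stacked at the summit, to the local background. The pileup and the background could each be solved from a peak's fold enrichment and p-value for 99.96% to 99.98% of the peaks of a list. The pileup was then divided by the lowest local background of its list (16.8 to 18.7 reads), which follows sequencing depth but not the locus. Over the 48266 regions called in all 4 lists (48222 of them solved in both CAST lists), the median log2 ratio of this value was 0.20 for CAST male over CAST female. It was 0.05 for B6 male over B6 female, 0.14 for CAST male over B6 male and -0.01 for CAST female over B6 female. Ratios of pileup below are read against these medians.

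Pex11a and Cpt1a had the highest own-promoter pileup over lowest background, 16.3 to 22.3 in the 4 lists, among the genes solved in every list. At Pex11a (chr7:86880843-86888017, minus strand) the promoter peak spans the first exon with its UTR. Its fold enrichment was 8.22 for males and 7.06 for females of B6, and 8.94 and 8.05 for those of CAST. The pileup was 364, 305, 373 and 309 reads in the same order of lists, which is kept below. Both male lists were above both female lists, and the log2 ratio of pileup over lowest background was 0.28 in B6 (95% interval 0.06 to 0.50) and 0.19 in CAST (-0.03 to 0.41). The B6 interval lies just above the median of shared regions, and the CAST interval holds it.
At Cpt1a (chr19:3323301-3385732, plus strand) the promoter fold enrichment was 2.69, 3.06, 2.63 and 2.90. The pileup was 353, 410, 397 and 352 reads. The low fold enrichment stands beside a local background of 7.11 to 8.45 times the lowest of the list, against 2.23 to 2.36 times at Pex11a. The male over female log2 ratio was -0.19 in B6 (-0.39 to 0.02), an interval below the median of shared regions, and 0.09 in CAST (-0.11 to 0.30), one that holds it.

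At Ehhadh (chr16:21761360-21787917, minus strand) the promoter fold enrichment was 4.15, 3.36, 4.30 and 4.01, with pileups of 248, 215, 246 and 210 reads. The male lists were higher in both strains, with log2 ratios of 0.23 (-0.03 to 0.50) in B6 and 0.15 (-0.12 to 0.41) in CAST, and both intervals hold the median of shared regions. A stronger region 6.48 kb upstream, at the start of the neighbouring transcript 1300002E11Rik, had pileups of 326, 315, 338 and 266 reads.
At Acaa1b (chr9:119057141-119066211, minus strand) the promoter was level, with fold enrichments of 3.26, 3.37, 3.31 and 3.36 and pileups of 258, 281, 256 and 236 reads. Its log2 ratios were -0.10 (-0.34 to 0.15) in B6 and 0.04 (-0.22 to 0.29) in CAST, and -0.10 to 0.04 between the strains. Acaa1b has a near-identical copy, Acaa1a, and as the alignment kept reads with a single place in the genome, those that fit both genes alike are missing here. A region 8.31 kb upstream, away from every annotated start, had pileups of 298, 275, 347 and 321 reads. These were the highest of the window except in B6 females, where the promoter had 281. The region 11.5 kb past the start had 55, 59, 78 and 96 reads, fewer in B6 than in CAST. The match with no mismatch, at chr9:119054411-119054423, lay inside the CAST peaks of this region and outside the B6 peaks. This rests on the edges of the called peaks. The CAST female peak starts at 119054410, the B6 female peak at 119054445 and the B6 male peak at 119054517. A strain difference at the match itself was not tested. The upstream promoter region had 136, 147 and 120 reads and no peak in CAST females. The second match lay inside its CAST male peak and outside both B6 peaks.

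Vnn1 (chr10:23614494-23625149, plus strand) differed most between lists in promoter pileup, among the genes with a solved one in every list. It was 96 reads for males and 165 for females of B6, and 60 and 51 for those of CAST. B6 females stood above the other lists, and both CAST lists stood below both B6 lists. Pileup over lowest background was 1.69-fold higher in B6 females than in B6 males (1.31 to 2.17), 2.91-fold higher in B6 females than in CAST females (2.13 to 3.99) and 1.55-fold higher in B6 males than in CAST males (1.12 to 2.14). Between the CAST lists the log2 ratio of males over females was 0.16 (-0.38 to 0.69). The fold enrichment was 3.26, 4.05, 3.19 and 2.37. Both CAST lists were below both B6 lists by that measure too, but CAST males were close to B6 males. On that scale the log2 ratio was -0.31 for B6 males over females and -0.03 for CAST over B6 males, both within 1.5-fold, and -0.77 for CAST over B6 females.
Local background at the Vnn1 promoter moved the same way as the pileup in these 3 comparisons. Its log2 ratio was -0.45 for B6 males over females, where regions called in all 4 lists lay between -0.20 and 0.33 from the 5th to the 95th percentile. It was -0.62 for CAST over B6 males (-0.32 to 0.35 in those regions) and -0.78 for CAST over B6 females (-0.45 to 0.46). For CAST males over females it was -0.29 (-0.20 to 0.38), against a pileup ratio above 0. Its part in the differences was not tested.
The rest of the Vnn1 window followed the pileup of the promoter in part. The distal region 9.57 kb upstream had pileups of 106, 161, 56 and 66 reads. A small region 1.82 kb upstream of the start was called in both female lists, with 92 reads in B6 and 48 in CAST, and in neither male list. The region beside it, 1.13 kb upstream, was called in all lists but the CAST male one. No peak lay inside the gene beyond its first part or downstream of it.
Vnn1 was the 1 gene of 6 with a promoter pileup past 1.5-fold between the sexes in B6, on the female side, a call that fold enrichment did not give. Of all protein-coding genes with a promoter peak in both B6 lists, 0.747% were past it on the female side and 0.898% on the male side. In CAST 0 of 6 genes were past it in either direction, where the shares of all genes were 0.435% for females and 4.52% for males. Between the strains Vnn1 was again the 1 gene past 1.5-fold, lower in CAST in males (1 of 6) and females (1 of 5), and by fold enrichment the call was kept in females and lost in males. The shares of all genes lower in CAST were 1.08% in males and 3.53% in females, and 3.77% and 2.68% were higher.

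**Figure D2:**
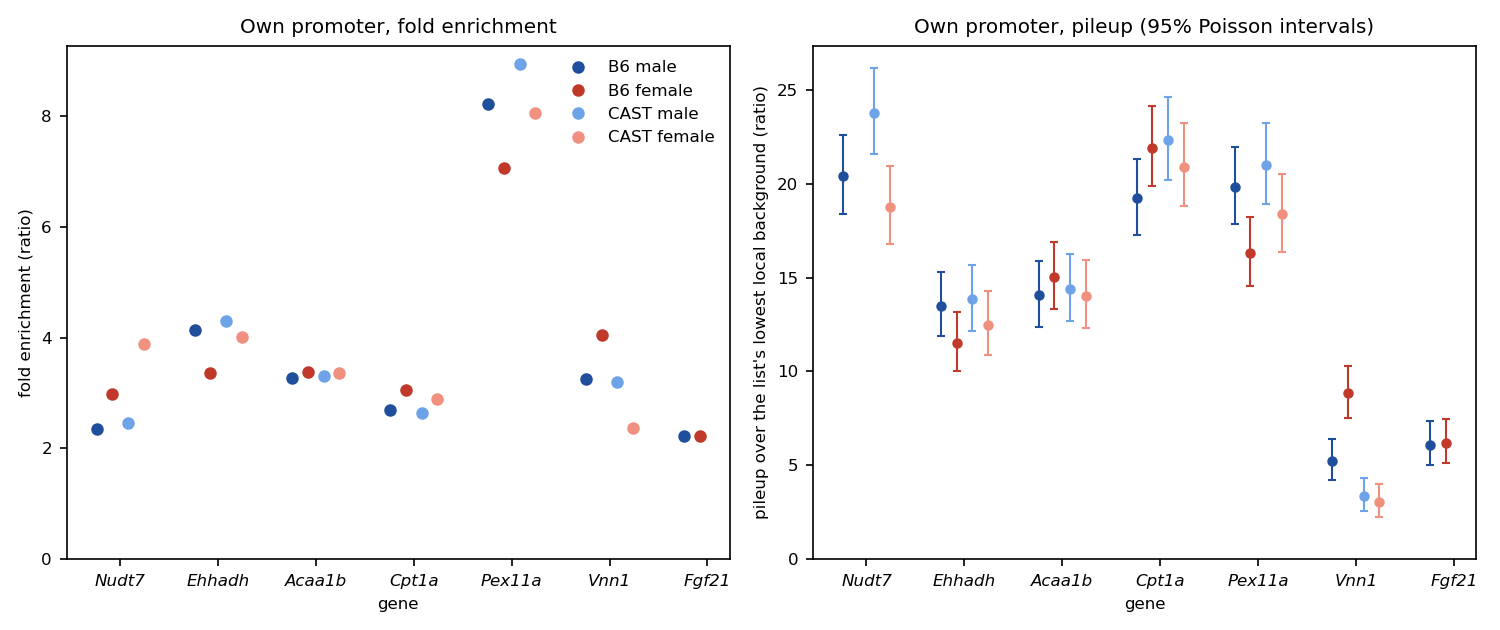
Own-promoter fold enrichment (left) and pileup over the list's lowest local background (right) for each gene and list, with 95% Poisson intervals of the pileup; the B6 female promoter of Nudt7 has no solved pileup, and Fgf21 has no promoter peak in CAST. Vnn1 shows the widest spread across lists on the right, with B6 females highest, and at Nudt7 the order of the CAST sexes turns between the panels.

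At Nudt7 (chr8:116657457-116676212, plus strand) the 2 measures went apart. The promoter fold enrichment was 2.35 for males and 2.98 for females of B6, and 2.45 and 3.88 for those of CAST. It was higher in females in CAST and, as listed by the caller, in B6. The pileup was 375 reads in B6 males, 423 in CAST males and 316 in CAST females, so that in CAST the male list was higher. That of the B6 female peak could not be solved, since its fold enrichment and p-value go with no whole number of reads. By score, which ranks peaks by significance, that peak stood at percentile 23.6 of its list and the B6 male one at 82.7. This rank rests on the same p-value, so neither measure settles the order of the B6 sexes at this promoter. The CAST log2 ratio of males over females was -0.66 in fold enrichment and 0.34 in pileup over lowest background (0.13 to 0.55), an interval that holds the 0.20 of shared regions.
Local background moved with this. It was 9.68 times the lowest background of the list in CAST males and 4.80 times in CAST females, a log2 ratio of 1.01. Over the regions called in all 4 lists the log2 ratio of the CAST backgrounds lay between -0.20 and 0.38 from the 5th to the 95th percentile. Across these regions the CAST background ratio and pileup ratio had a Pearson r of 0.65, and the B6 ratios one of 0.62, a description over regions of the same lists. What set the background was not tested. By fold enrichment Nudt7 was the 1 gene of 6 lower past 1.5-fold in CAST males, against 0.184% of all protein-coding genes. Vnn1 was the 1 gene of 6 lower past it in CAST females than in B6 females, against 1.46% of genes.
The same held at other Nudt7 regions. The intronic region 10.3 kb past the start had pileups of 98, 102, 93 and 86 reads but fold enrichments of 1.81, 2.43, 1.73 and 3.06. The region 2.53 kb upstream had pileups of 252, 204, 261 and 144 reads with fold enrichments of 1.89, 1.93, 1.94 and 2.05. There the pileup was higher in males in both strains, by 0.33 in B6 and 0.78 in CAST on the log2 scale, with backgrounds higher by 0.36 and 0.86.

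**Figure D3:**
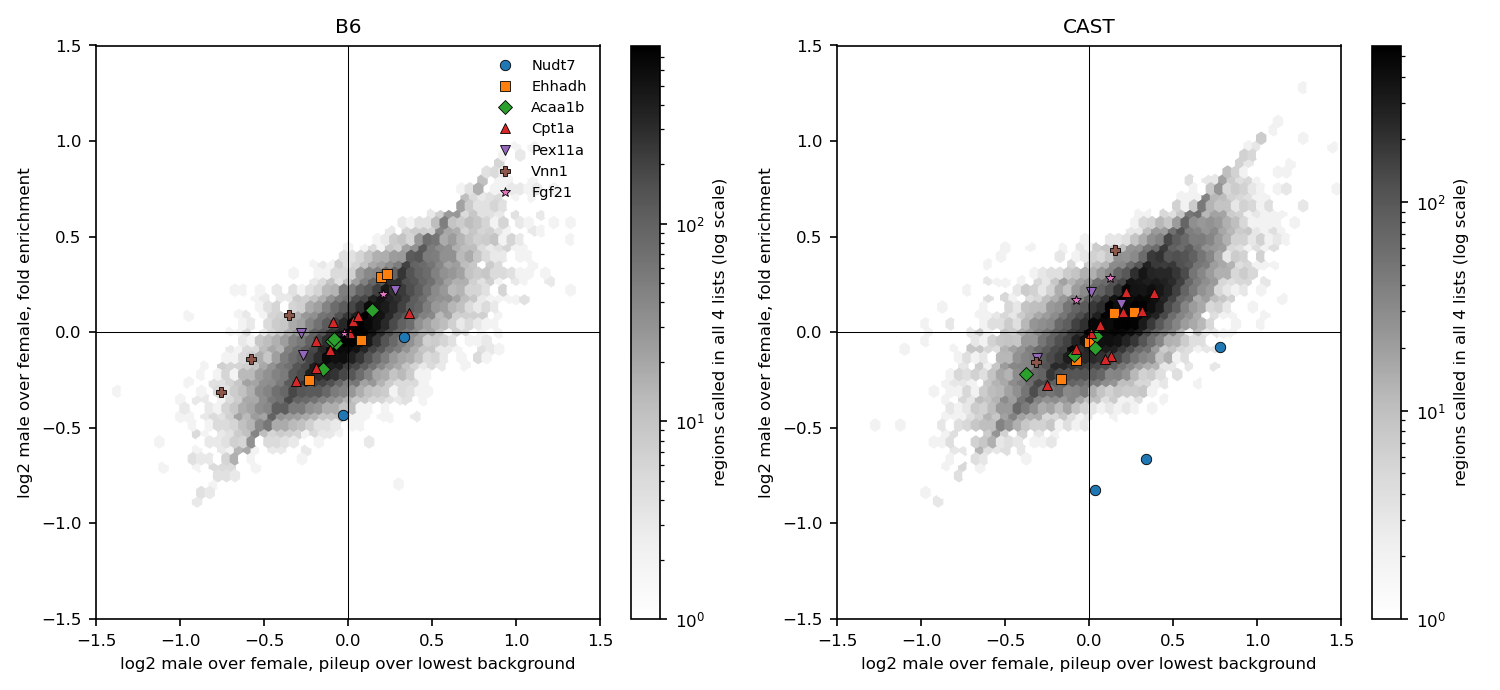
Log2 male over female ratio of pileup over the lowest background (x axis) against that of fold enrichment (y axis) for regions called in both sexes at the 7 genes (symbols), over all regions called in all 4 lists (grey, number per cell on a log scale), in B6 and CAST. Most symbols lie within the grey cloud, while 2 of the Nudt7 regions lie below it in CAST, at -0.66 in fold enrichment for the promoter and -0.83 for the intronic region.

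Fgf21 (chr7:52869277-52870860, minus strand) had a promoter region in B6 alone. The region, at chr7:52869745-52871818, covers the start and most of this gene of 1584 bases and was called in B6 males (fold enrichment 2.22, 112 reads) and B6 females (2.23, 116 reads). Neither CAST list had a peak there. The 300 bases upstream of the annotated start, chr7:52870861-52871160 on the minus strand, are shown since they lie inside this region. They are of the NCBIM37 reference and so of B6, CAST alleles being not analysed here. The capitals mark a TATAAA, 28 bases before the start, and no direct-repeat match lay in these bases.
Fgf21 upstream: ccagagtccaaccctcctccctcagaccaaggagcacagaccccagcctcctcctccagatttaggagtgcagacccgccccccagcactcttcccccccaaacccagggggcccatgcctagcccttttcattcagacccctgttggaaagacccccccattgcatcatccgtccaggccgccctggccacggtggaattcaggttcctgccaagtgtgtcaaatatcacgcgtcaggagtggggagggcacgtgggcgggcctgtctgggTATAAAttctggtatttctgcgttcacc
Past the 3′ end of Fgf21 the order of the strains turned. The distal region 4.69 kb past the start, which holds the match shown for Fgf21, was called in all lists with 212 reads for males and 187 for females of B6, and 291 and 253 for those of CAST. Pileup over lowest background was higher by 0.50 on the log2 scale in CAST males than in B6 males (0.25 to 0.76) and higher by 0.59 on the log2 scale in CAST females than in B6 females (0.32 to 0.86). A further region, 11.3 kb past the start, had 57 reads in B6 males and 107 in each CAST list, with no peak in B6 females.
By strain, 2 of the 56 regions were called in both B6 lists and no CAST list, the Fgf21 promoter and an intronic Cpt1a region 29.6 kb past the start. The share in the windows of all protein-coding genes was 3.8%. In CAST alone lay 1 region, intronic in Ehhadh 5.12 kb past the start, against a share of 5.85%.

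More regions were called in males alone than in females alone in both strains, as in all windows in CAST but not in B6. In B6, 13 of 48 regions were called in males alone (27.1%) and 6 in females alone (12.5%). In the windows of all protein-coding genes the shares were 17% for males and 17% for females. In CAST, 12 of 43 regions were male-only (27.9%) and 2 female-only (4.65%), where all windows gave 20.9% and 13.6%. The 13 B6 male-only regions were all distal, with fold enrichments of 1.54 to 2.12 and a median score percentile of 15.6 within their list, and the 12 CAST ones had 1.48 to 2.22 and 18.4. With peaks of a −log10 q of at least 5 alone, 6 male-only regions were left in each strain, with 4 female-only in B6 and 2 in CAST. The shares in all windows were not computed at this threshold, so these counts have no background to be read against.
By gene, the male-only regions in B6 were 6 of the 17 called at Cpt1a, 3 of 7 at Nudt7 and 2 of 8 at Acaa1b. They were 1 of 4 at Pex11a and 1 of 4 at Fgf21. In CAST they were 3 of 6 at Nudt7, 3 of 7 at Acaa1b, 2 of 7 at Ehhadh and 2 of 12 at Cpt1a. There Pex11a had 1 of 4 and Fgf21 1 of 3.
Male-only in both strains were 3 of the 56 regions, against 2.29% of regions in all windows. They were 2 introns of Nudt7, 3.56 and 15.8 kb past the start, and a region just past the 3′ end of Acaa1b. The first Nudt7 one had 205 reads in B6 males and 233 in CAST males, and a fold enrichment of 1.54 and 1.53. Its local background was 7.24 and 8.53 times the lowest background of the list. With regions within 500 bp joined, it became part of the Nudt7 promoter region called in all 4 lists. With a −log10 q of at least 5, it was the 1 of the 3 left in both male lists. Female-only in both strains was 1 region, the one 1.82 kb upstream of Vnn1, against 1.22%. The same joining put it in the Vnn1 promoter region called in all 4 lists, and the call was lost.

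**Figure D4:**
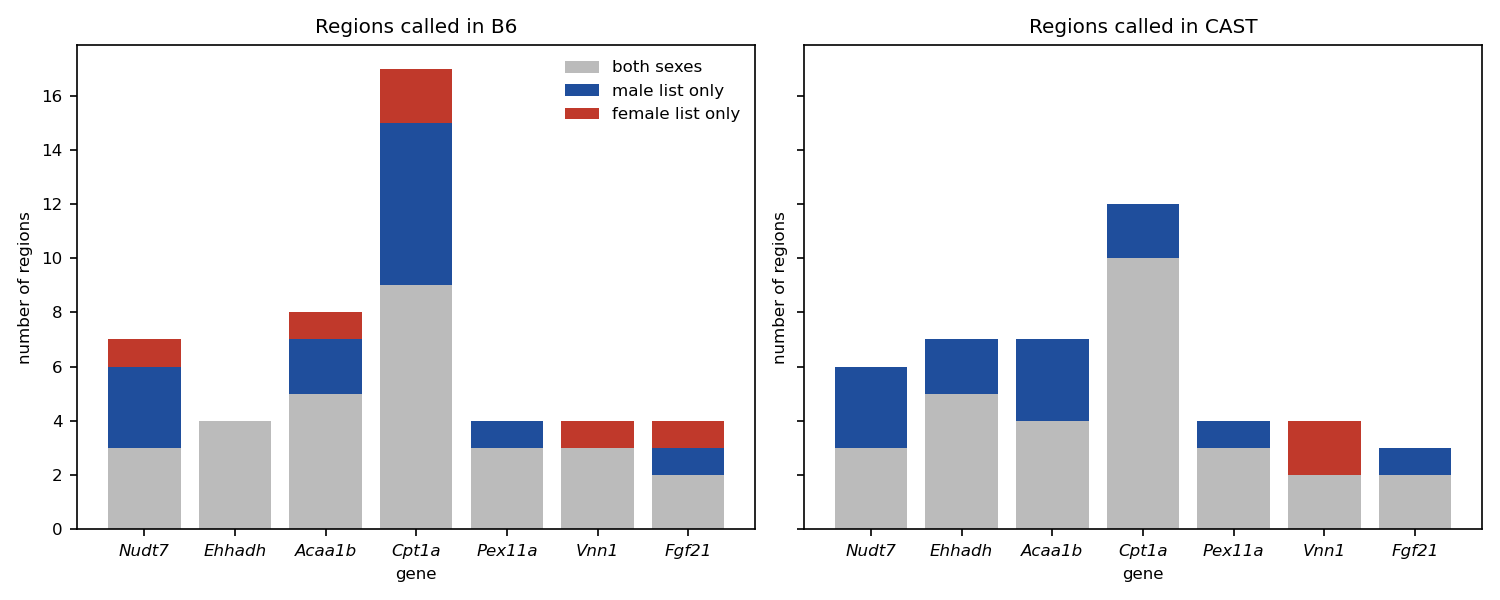
Number of regions in the window of each gene called in both sexes, in the male list alone or in the female list alone, in B6 (left) and CAST (right). Male-only regions outnumber female-only ones at Nudt7, Acaa1b, Cpt1a and Pex11a in both strains, and Vnn1 has female-only but no male-only regions.

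By the bases under peaks in windows of 10 kb, no gene differed between the sexes as far as 1.5-fold. In windows of 5 kb, Acaa1b and Vnn1 passed it in CAST, with log2 ratios of males over females of 0.83 and -0.62. Nudt7 had 6226 covered bases for males and 5203 for females of B6, and 6083 and 4224 for those of CAST. Cpt1a, with the longest window, had 11544, 8960, 8833 and 7993. Both were higher in males in both strains.
Ehhadh had 5204, 5276, 6535 and 4769 covered bases, and Acaa1b 5645, 5734, 7496 and 5271. These were level in B6 and highest in CAST males.
Pex11a had 3570, 3547, 3395 and 3137, Vnn1 3182, 3859, 2434 and 2695, and Fgf21 3867, 3909, 2565 and 2297. Vnn1 alone was lower in males in both strains, but its log2 ratio of males over females turned from -0.28 to 0.19 in B6 when peaks were taken by their midpoint and from -0.15 to 0.50 in CAST with a −log10 q of at least 5.
In B6, 3 of 7 genes had more covered bases in males, with a median log2 ratio of -0.02 against 0.04 over all protein-coding genes. In CAST 6 of 7 did, with a median of 0.16 against 0.11. The shares of all genes past 1.5-fold were 5.23% for males and 4.05% for females in B6, and 8.61% and 2.3% in CAST.
Between the strains, 1 of 7 genes, Fgf21, was past 1.5-fold in either sex, with fewer bases in CAST (log2 ratio -0.59 in males and -0.77 in females). In windows of 25 kb these were -0.26 and -0.38, and with a −log10 q of at least 5 the ratio in males was -0.48. Vnn1 was past it in windows of 5 kb, at -0.73 in males and -0.59 in females, in males with peaks taken by their midpoint (-0.94) and in females with the stricter q (-1.17). Acaa1b was past it in males in windows of 5 kb, at 0.78. The shares of all genes were 5.11% lower and 9.34% higher in CAST males, and 10.1% lower and 8.59% higher in CAST females. All 7 genes had fewer covered bases in CAST females than in B6 females, the median log2 ratio being -0.18 against -0.05 over all genes.

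**Figure D5:**
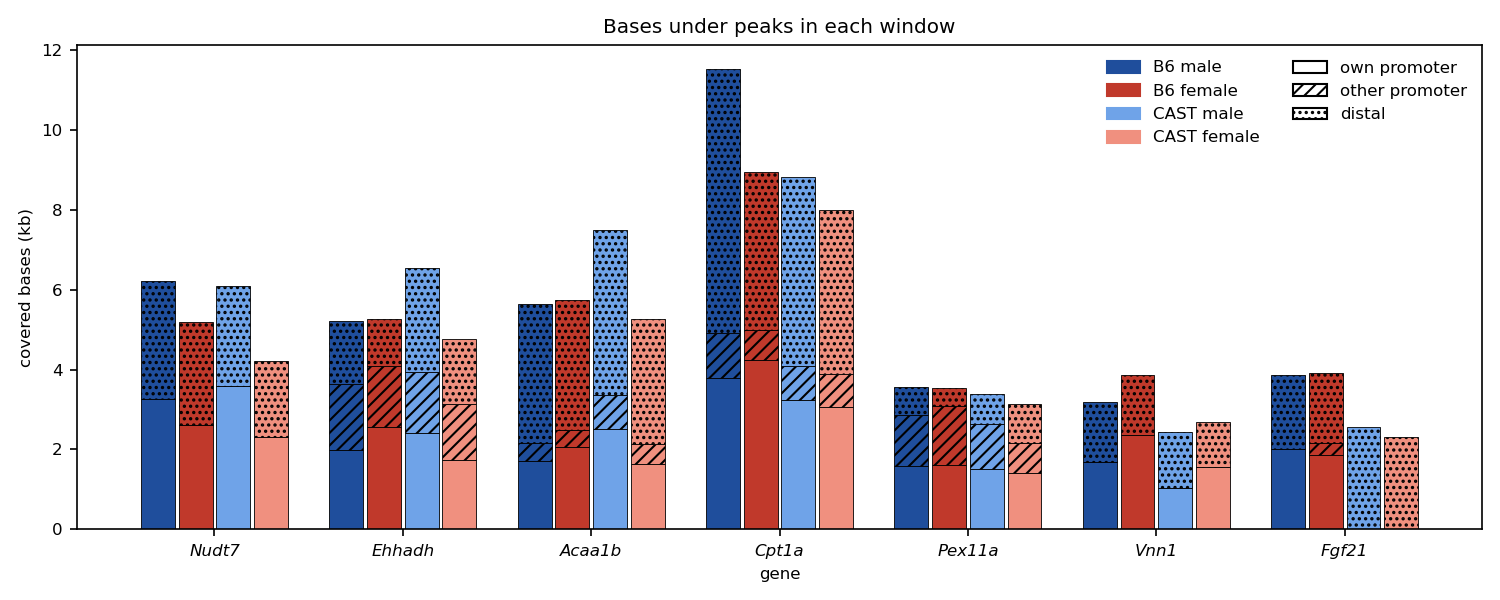
Covered bases in kb in the window of each gene and list, split by own promoter (plain), other promoter (hatched) and distal (dotted). Cpt1a reaches 11.5 kb in B6 males, and at Fgf21 the plain part is present in the B6 bars alone.

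Summed over the 7 windows, distal peaks numbered 30 for males and 22 for females of B6, and 30 and 21 for those of CAST. They covered 18696, 14724, 18724 and 15204 bases with a width-weighted mean fold enrichment of 2.48, 2.66, 2.76 and 3.05. Distal bases were past 1.5-fold on the male side at Cpt1a (log2 ratio 0.74) and Pex11a (0.59) in B6, where 15.3% of all protein-coding genes were, and at Ehhadh (0.66) in CAST, where 20.5% were. In the other strain the log2 ratio was 0.21 at Cpt1a, -0.35 at Pex11a and 0.41 at Ehhadh. Over the 7 windows together, male lists had more distal peaks and bases with a lower mean. Cpt1a alone held 13 distal peaks and 6637 distal bases in B6 males, against 8 and 3969 in B6 females. Per gene, the median male over female log2 ratio of distal bases was 0.19 in B6 and 0.33 in CAST. All protein-coding genes leaned the same way, with medians of 0.07 and 0.16. Own-promoter peaks covered 16020, 17269, 14265 and 11706 bases with means of 3.15, 3.31, 3.48 and 3.57. The median male over female log2 ratio of the highest own-promoter fold enrichment was -0.05 in B6 and 0.04 in CAST, where all protein-coding genes gave -0.02 and 0.12.

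Of 45 further genes of PPARA signalling and fatty acid oxidation, 0 of 44 had 1.5-fold more covered bases in B6 males and 4 of 44 had that in B6 females, with 1 and 5 of 44 in CAST. Cyp4a10, a fatty acid ω-hydroxylase, had 959 covered bases for males and 2099 for females of B6, and 1720 for females and no peak for males of CAST, where it has no ratio and is not counted. Past 1.5-fold on the female side in both strains were Acot1, Acot2 and Acot3, acyl-CoA thioesterases. Acot1 had 1713, 3474, 1418 and 2693 covered bases in the order of lists above, Acot2 1978, 4242, 2244 and 3988, and Acot3 2749, 5046, 1457 and 3991. All 3 were higher in females. They lie near each other on chromosome 12 as similar copies, and the windows of Acot1 and Acot2 overlap, as do those of Acot3 and Acot4. By promoter fold enrichment none of the 45 was past 1.5-fold in the same direction in both strains. By promoter pileup over lowest background, 5 of 43 in B6 and 4 of 44 in CAST were past it on the female side, and none on the male side. The same direction in both strains held for Cyp4a14, of the same enzyme family as Cyp4a10 (log2 ratio of males over females -1.02 in B6 and -1.09 in CAST), Acot3 (-1.04 and -1.02) and Acot4 (-0.67 and -0.71), named after their values were seen.
The pathway gene nearest in covered bases, by Euclidean distance of centred log2 values over the 4 lists, was Fabp1 for Ehhadh (distance 0.08) and Acaa1b (0.02), and Abcd2 for Nudt7 (0.18) and Cpt1a (0.13). It was Slc27a2 for Pex11a (0.10), Hadh for Vnn1 (0.20) and Plin2 for Fgf21 (0.16). Fabp1, the liver fatty acid binding protein, had 5354, 5443, 7229 and 4954 covered bases, highest in CAST males as at Acaa1b.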

How the data were processed

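The 7 genes and the gene lists were chosen with earlier results of these data known. The authors aligned H3K27ac ChIP-seq reads of 20 livers and 4 inputs with Bowtie2 (2.2.9), CAST reads to a CAST genome with coordinates returned to mm9, pooled the reads of a group and called peaks with MACS2 (2.1.1), per the labels and the methods of the study. Per these methods, regions on a blacklist were removed; peak numbers are missing from the B6 lists (599 in males, 579 in females) and none from the CAST lists. The deposited narrowPeak lists give a score, the fold enrichment (a ratio), the −log10 p-value and the −log10 q-value of each peak. Read totals were not used here. Genes are GENCODE vM1 on NCBIM37 (mm9). Pileup and background were solved from fold enrichment and p-value with Python 3.11.15 and scipy 1.17.1, a measure added after the data were seen and tested on simulated data. The solution failed for 15 to 36 peaks of a list. Intervals are 95% Poisson, and for ratios on the log scale from both pileups. Named were all 7 genes, single regions by sex or strain, and pathway genes past 1.5-fold in the same direction in both strains. Other regions were chosen after their values were seen. Windows, thresholds, list length, overlap, joining, promoter width, transcript starts and measure of signal were varied. 1 sequence match and its region are not reported here. Nothing was tested between groups, as each has 1 pooled list.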

Additional observations from a re-analysis of the deposited data

Results flagged for a closer look

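The promoter of Vnn1 had sex ratios of opposite sign in the 2 strains. The log2 ratio of males over females in pileup over the lowest background was -0.76 in B6 and 0.16 in CAST. The difference between the strains was not tested, since each group is 1 pooled list, and the CAST interval of -0.38 to 0.69 lies on both sides of 0. Relative to the median of the regions called in all 4 lists, the CAST ratio was -0.04 (-0.58 to 0.50), so an opposite direction was not shown.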

How the results depend on the processing

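Of 399 values recomputed under an alternative, 378 were counted as unchanged. Ratios of single genes had to stay on their side of the 1.5-fold limit, and counts and distal sums within 1.5-fold of the main value. A ratio within the limit that passed it with the other sign also counted as unchanged. Medians of promoter ratios had to stay within a counting half-width of 0.23 to 0.25 on the log2 scale. Percentile points were judged mainly by direction. Directions were less stable: of 351 recomputed log2 ratios and medians of ratios, 41 changed sign, 39 of them from a value within the limit. Among these, the median own-promoter fold enrichment ratio of CAST males over females went from 0.04 to -0.04 when scaled to the regions called in all 4 lists. The CAST male over female ratio of the Nudt7 promoter turned from -0.66 in fold enrichment to 0.34 in pileup over the lowest background, and to 0.15 with that value scaled to the regions called in all 4 lists. The pileup value and its scaled form were chosen after the data were seen, unlike fold enrichment, and the cause was not tested. With a −log10 q of at least 5, which leaves fewer peaks, male-only regions numbered 6 in B6 instead of 13 and 6 in CAST instead of 12. Joining peaks within 500 bp gave 0 female-only regions in CAST instead of 2. With more covered bases in CAST than in B6 females there was 1 gene instead of 0, both in windows of 5 kb and with the stricter q. No paired analysis was possible because the lists pool the replicates. Peak lists give no signal below their threshold, so a missing peak bounds nothing, and neither the spread between livers nor the depth in reads was measured.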
